A study of Mus musculus with 14 samples.

Results

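The genes described are 7 matrix metalloproteinases (Mmp2, Mmp3, Mmp9, Mmp10, Mmp12, Mmp13 and Mmp14) and 3 tissue inhibitors of metalloproteinases (Timp1, Timp2 and Timp3), chosen by symbol, which makes 10 of the 54532 genes in the count table. RNA was sequenced from whole mouse tumours grown from 4T1, a triple-negative mammary carcinoma line, after 1000000 cells had been placed under the skin over the mammary gland. Intraperitoneal injections began on day 9, at about 100 mm3, and were repeated at intervals of 6 days. Tumours were removed 3 days after cycle 3. The groups are PBS (the vehicle, 4 libraries), CTX100 (cyclophosphamide at 100 mg/kg, 5 libraries) and CTX140 (140 mg/kg, 5 libraries). Cyclophosphamide is an alkylating drug that crosslinks DNA. All groups share the line, the graft site and the schedule; the labels give no strain, sex or age of the mice, and do not state whether libraries came from different animals. P-values therefore reflect the spread among these libraries only, which may be technical.

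Matrix metalloproteinases are zinc-dependent enzymes that cut collagens, gelatin, elastin, laminin and proteoglycans outside the cell. They are made as inactive precursors whose propeptide has to be removed, and the tissue inhibitors bind the active site and block it. In carcinomas these enzymes come from tumour cells, fibroblasts, macrophages, neutrophils and vessel cells alike, and RNA level says nothing of how much enzyme has been activated.

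Library totals were 14.4 to 19.3 (in units of 1000000 counts), and no library pair among the 91 was identical. The labelled cell type, a triple-negative breast cancer cell, was checked against keratins and other epithelial genes: in PBS, Krt8 and Krt18 had means of 911 and 738 CPM (counts per 1000000, on library sizes scaled by TMM), while Epcam was at 1.40 CPM. Of 8 such epithelial genes 5 were called higher at CTX140, beside 11.1% of all genes, and none at CTX100, beside 1.20%. The 5 were Epcam, Krt19, Cdh1, Krt14 and Krt5, with PBS means of 0.305 to 11.3 CPM. Krt8 and Krt18, at 876 and 656 CPM in CTX140, were not called. The summed level of the 8 genes was 1436.5 to 2255 CPM in PBS, 1749 to 2123 CPM in CTX100 and 1270 to 1952 CPM in CTX140. Marker genes of fibroblasts, macrophages, neutrophils, vessels and T cells were read in every library, so each value below is that of a mixed tissue, in which more cells of a type and more RNA per cell cannot be told apart.

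At the higher dose 3 of the 10 genes rose, Mmp2, Timp1 and Mmp12, and none fell; at the lower dose none was called. Each gene was tested with edgeR's quasi-likelihood test over 15360 genes, and called at a Benjamini-Hochberg adjusted p under 0.05. All 10 passed the filter on low counts. For CTX140 against PBS the 3 calls among 10 members stand beside 21.3% of all genes called (11.1% higher and 10.1% lower), and 2 members, Mmp2 and Timp1, had groups that did not overlap, beside 14.3% of all genes. For CTX100 against PBS edgeR called 0 members beside 1.60% of all genes (1.20% higher). At this dose 6 members had an unadjusted p under 0.05, against 2748 of the 15360 genes, limma on log2(FPKM + 1) called 0, and DESeq2 called 3, which were Mmp2, Mmp13 and Timp1, while calling 857 of all genes where edgeR called 245. The groups did not overlap for 4 members at CTX100 (Mmp2, Mmp10, Mmp13 and Timp1), beside 8.72% of all genes. For CTX140 against CTX100 edgeR and limma called 0 members beside 1.25% of all genes, 3 had an unadjusted p under 0.05 against 3430 of all genes, and DESeq2 called 2 (Mmp2 and Timp1), with 1285 of all genes where edgeR called 192. The groups overlapped for all 10 members between the doses, beside 6.04% of all genes without overlap. The first comparisons share the PBS libraries, so their values are not independent of each other. The median log2 fold change of the 10 members was 0.76 at CTX100 and 0.83 at CTX140, each against PBS, beside medians of -0.01 and 0.02 over all genes tested. The members were chosen with earlier results of these data known, so these medians only describe the list and were not tested.

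**Figure D1:**
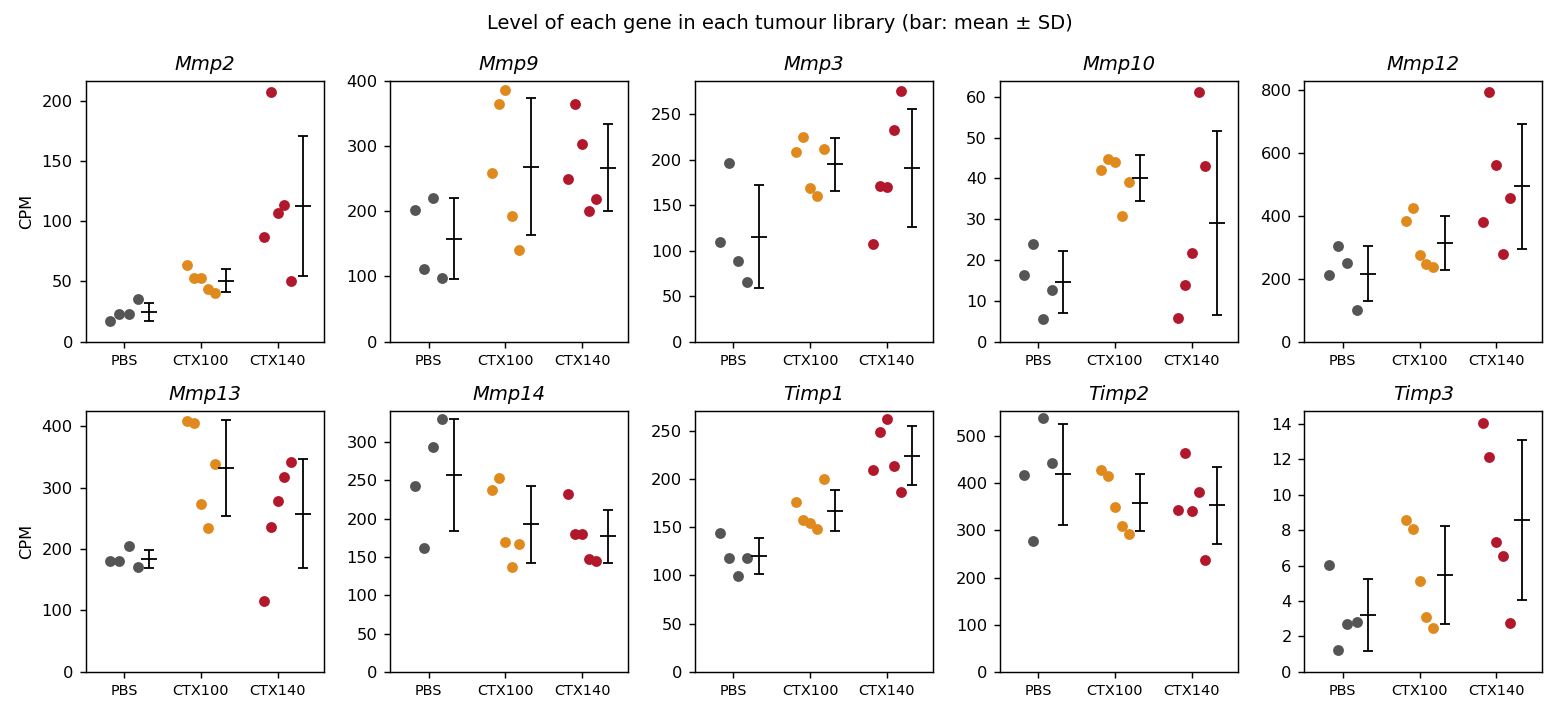
CPM of each of the 10 genes (vertical axes, from 0) in each library of PBS, CTX100 and CTX140; points are libraries and the bar beside them is the mean ± SD. Mmp2 and Timp1 are the genes whose CTX140 libraries all lie above all PBS libraries, and Mmp14 and Timp2 have lower means in both treated groups without a call.

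The levels of different genes are compared as FPKM, which divide by gene length. In PBS the order of mean levels was Timp1 (134 ± 20.6 FPKM, SD, n = 4), Timp2 (107 ± 27.6), Mmp13 (68.8 ± 5.81), Mmp3 (63.9 ± 31.5), Mmp9 (44.6 ± 17.7), Mmp14 (43.0 ± 12.2), Mmp12 (29.8 ± 11.9), Mmp10 (8.45 ± 4.42), Mmp2 (7.32 ± 2.26) and Timp3 (0.391 ± 0.248). Ranges of neighbours in this order overlapped for every pair but the last, Mmp2 above Timp3. At CTX140 Mmp2 stood at place 7, with 33.5 ± 17.4 FPKM (n = 5), and the 2 places after it were held by Mmp14 (29.6 ± 5.75) and Mmp10 (16.8 ± 13.1). The Mmp2 range there, 14.9 to 61.7 FPKM, overlapped those of both and of Mmp12 in the place above, so these places are not set apart by the libraries. Timp1 was first in all 3 groups, and in CTX100 (187 ± 24.4, n = 5) and CTX140 (252 ± 35.5, n = 5) its lowest library lay above the highest library of the gene in the next place.

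Mmp2 encodes gelatinase A, which cuts gelatin and basement membrane collagen (ENSMUSG00000031740, chromosome 8, 92827291 to 92853420, plus strand, mm10). It was read at 17.5, 23.0, 22.8 and 35.8 CPM in PBS 1 to 4. The CTX100 libraries 1 to 5 had 63.9, 53.0, 53.0, 43.4 and 40.6 CPM. In CTX140 1 to 5 the values were 87.4, 207, 107, 114 and 50.1 CPM. All treated libraries lay above all PBS libraries, CTX140 2 was the highest of the 14, and CTX140 5 fell within the range of CTX100.

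Mmp2 rose 4.56-fold at CTX140, from 24.8 ± 7.74 CPM (SD, n = 4) to 113 ± 58.1 CPM (n = 5), which is 2.19 ± 0.33 (SE) as log2 fold change (edgeR adjusted p = 0.000749). The call held without any 1 library (highest adjusted p = 0.00460). At CTX100 the mean was 50.8 ± 9.23 CPM (n = 5), a log2 fold change of 1.03 ± 0.32 that did not pass (edgeR adjusted p = 0.114). Between the doses the log2 fold change was 1.15 ± 0.30 and did not pass (edgeR adjusted p = 0.0613), but it did without CTX140 5 (adjusted p = 0.0159).

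Most fibroblast markers moved with Mmp2. Of 10 fibroblast markers, all tested, 2 were called higher at CTX100, 9 at CTX140 and 3 between the doses, and none lower. Over all genes 1.20%, 11.1% and 0.775% were called higher. The exception at CTX140, Pdgfra, had a lower mean there, 70.2 ± 21.6 CPM against 107 ± 53.1 CPM in PBS (edgeR adjusted p = 0.159). The summed level of the 10 markers was 822 to 1371 CPM in PBS, 1410 to 2377 CPM in CTX100 and 2438 to 6812 CPM in CTX140. None of them was at 0 in any library. The largest parts of the sum in CTX140 were the collagen genes Col1a1, Col1a2 and Col3a1, with means of 846, 770 and 1634 CPM. The library with the highest sum, CTX140 2, also had the highest Mmp2. The 3 genes most like Mmp2, of which Col1a2 is also on the fibroblast list, over the 14 libraries were the matrix genes Fbln1 (Pearson r = 0.98) and Col1a2 (r = 0.98) and C1qtnf3 (r = 0.97); within groups, with group means removed, r was 0.91, 0.91 and 0.92. Markers of other cell types were also called higher at CTX140, beside 11.1% of all genes. Adipocyte markers had 4 of 4 tested called, with sums of 7.03 to 48.2 CPM in PBS and 73.8 to 372 CPM in CTX140. For mast cells it was 5 of 6, for granulocyte precursors 5 of 7 and for carcinoma epithelium 5 of 8. Pericyte and smooth muscle markers had 3 of 7 called, and T cell markers 3 of 7. Macrophages (of 8), mature neutrophils (of 7) and osteoclasts (of 4 tested) had 1 each, and blood endothelium (of 6) none. The part of any of these cells in the Mmp2 result was not tested.

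**Figure D2:**
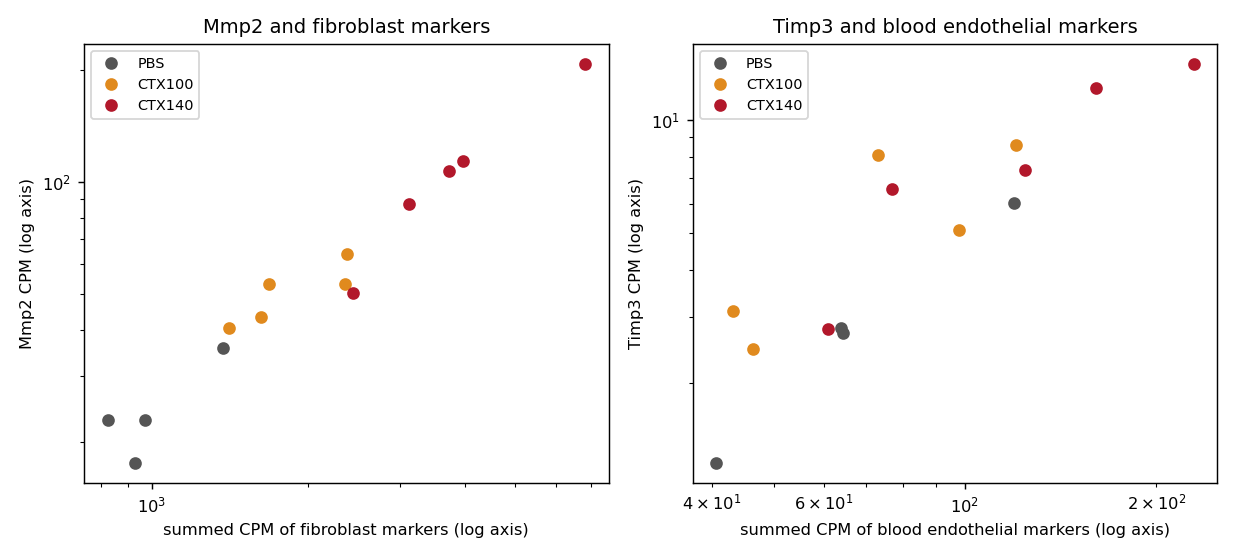
Left, Mmp2 CPM against the summed CPM of 10 fibroblast markers; right, Timp3 CPM against the summed CPM of 6 blood endothelial markers. Each point is a library, all axes are logarithmic, and colours give the group; in both panels libraries with a higher marker sum tend to have the higher gene level.

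Mmp9 encodes gelatinase B, stored by neutrophils and also made by macrophages, osteoclasts and tumour cells (ENSMUSG00000017737). Its PBS values in libraries 1 to 4 were 202, 112, 221 and 97.7 CPM. CTX100 1 to 5 had 259, 364, 386, 194 and 141 CPM, and CTX140 1 to 5 had 249, 364, 303, 201 and 218 CPM. The groups overlapped, and 3 libraries of each dose lay above all PBS libraries. The log2 fold changes against PBS were 0.77 ± 0.31 at CTX100 (edgeR adjusted p = 0.219) and 0.76 ± 0.31 at CTX140 (adjusted p = 0.0972), with -0.01 ± 0.29 between the doses (adjusted p = 0.989).

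Genes most like Mmp9 were Arg1, an arginase of some macrophages (r = 0.90), the collagen-cutting cathepsin Ctsk (r = 0.87) and Vwa1 (r = 0.87). Over all genes 11.1% were called higher at CTX140 and 1.20% at CTX100. Of 4 tested osteoclast markers, 1 (Ctsk) was called higher at CTX140 and none at CTX100. Of 7 mature neutrophil markers, 1 was called higher at CTX140 (Cxcr2) and none at CTX100; their summed level was 843 to 1734 CPM in PBS, 605 to 1546 CPM in CTX100 and 651 to 2077 CPM in CTX140. The part of these cells in the Mmp9 values was not tested.

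Mmp14 encodes a membrane-bound metalloproteinase that activates the Mmp2 precursor at the cell surface with Timp2 as an adaptor (ENSMUSG00000000957, chromosome 14, 54431612 to 54445364, plus strand). It was at 243, 161, 294 and 331 CPM in PBS 1 to 4. It was at 237, 254, 170.1, 137 and 166 CPM in CTX100 1 to 5, and at 232, 180.4, 179, 148 and 145 CPM in CTX140 1 to 5. PBS 2 lay among the treated libraries and the other PBS libraries above most of them. Against PBS the log2 fold changes were -0.42 ± 0.21 at CTX100 (edgeR adjusted p = 0.323) and -0.54 ± 0.21 at CTX140 (adjusted p = 0.0816). The second was called lower without PBS 2 (adjusted p = 0.0175) or without CTX140 1 (adjusted p = 0.0434). Mmp2 and Mmp14 thus had fold changes of opposite sign against PBS at each dose.

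Mmp3 and Mmp10 encode stromelysins, which cut proteoglycans, laminin and fibronectin and can activate other metalloproteinases, and Mmp13 encodes a collagenase that cuts fibrillar collagen. They lie with Mmp12 in the metalloproteinase cluster of chromosome 9: Mmp13 at 7272514 to 7283331, Mmp12 at 7344381 to 7369499, Mmp3 at 7445822 to 7455975 and Mmp10 at 7502352 to 7510240, all on the plus strand (mm10). The start regions of these genes are shown because the letters of an AP-1 site, TGACTCA on either strand, were found in each of them and in none of the other 4 members that have an entry. RefSeq promoters (GRCm38.p6, 300 bases around each start) were given for 8 of the 10 members; Mmp2 and Mmp9 are not among them. The letters occur in 5.20% of all 32851 promoters of that length and in 2.84% of the 150-base windows before the start. A match is a description of the sequence and not evidence of a bound site. The 150 bases before the start follow, 5′ to 3′, in lower case with the match in capitals; Mmp12 has a second RefSeq start, which is the one shown, and its first start at 7344397 holds no match.

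Mmp3, chr9:7445672-7445821, plus strand, match 46 bases before the start: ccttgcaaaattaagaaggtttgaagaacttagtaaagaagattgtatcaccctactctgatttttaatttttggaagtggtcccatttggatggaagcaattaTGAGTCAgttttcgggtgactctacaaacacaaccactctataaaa
Mmp10, chr9:7502192-7502341, plus strand, match 63 bases before the start: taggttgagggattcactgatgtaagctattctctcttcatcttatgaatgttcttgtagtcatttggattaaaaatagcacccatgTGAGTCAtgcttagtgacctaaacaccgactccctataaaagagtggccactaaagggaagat
Mmp13, chr9:7272364-7272513, plus strand, match 35 bases before the start: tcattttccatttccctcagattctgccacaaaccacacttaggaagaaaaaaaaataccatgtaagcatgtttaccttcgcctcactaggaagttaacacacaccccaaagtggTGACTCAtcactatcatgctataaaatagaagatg
Mmp12, chr9:7347224-7347373, plus strand, match 44 bases before its second start: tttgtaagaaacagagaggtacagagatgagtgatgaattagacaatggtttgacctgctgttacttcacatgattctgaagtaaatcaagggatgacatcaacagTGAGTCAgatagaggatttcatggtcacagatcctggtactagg

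Mmp3, Mmp10 and Mmp13 were higher in most CTX100 libraries than in PBS, and had a wide spread at CTX140; none was called. Mmp13 was at 181, 180.3, 206 and 171 CPM in PBS 1 to 4 and at 408, 406, 273, 234 and 339 CPM in CTX100 1 to 5. Every CTX100 library lay above every PBS library. The CTX140 libraries 1 to 5 had 116, 237, 278, 318 and 342 CPM, of which the first lay below all PBS libraries and the others above them. The log2 fold change was 0.85 ± 0.25 at CTX100 (edgeR adjusted p = 0.0916) and 0.48 ± 0.25 at CTX140 (adjusted p = 0.172). Without CTX140 1 the second was 0.67 and was called (adjusted p = 0.0130).

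Mmp10 was the least abundant of these collagenase and stromelysin genes. It was at 16.3, 23.9, 5.52 and 12.7 CPM in PBS 1 to 4 and at 42.2, 44.6, 44.0, 30.8 and 39.1 CPM in CTX100 1 to 5, so that these groups did not overlap. CTX140 1 to 5 had 5.87, 13.8, 21.7, 61.1 and 43.0 CPM, spanning from near the lowest PBS library to above every other library of the study. The log2 fold changes against PBS were 1.46 ± 0.54 at CTX100 (edgeR adjusted p = 0.175) and 0.99 ± 0.53 at CTX140 (adjusted p = 0.200).

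Mmp3 was at 110.1, 196, 89.2 and 65.9 CPM in PBS 1 to 4. CTX100 1 to 5 had 208, 226, 169, 160.2 and 212 CPM, and CTX140 1 to 5 had 107, 172, 170.0, 233 and 276 CPM. PBS 2 lay within the range of both treated groups, and the other PBS libraries below all CTX100 libraries. The log2 fold change was 0.76 ± 0.29 at CTX100 (edgeR adjusted p = 0.193) and 0.73 ± 0.29 at CTX140 (adjusted p = 0.0881). Without PBS 2 both were called (adjusted p = 0.0297 and 0.00799), and without CTX140 1 so was the second (adjusted p = 0.0343).

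These 3 genes varied together over the libraries. Pearson's r of log2 CPM over the 14 libraries was 0.81 for Mmp3 with Mmp10 (Spearman's rho 0.81), 0.75 for Mmp3 with Mmp13 (rho 0.80) and 0.81 for Mmp10 with Mmp13 (rho 0.76). With group means removed r was 0.77, 0.65 and 0.68, and without the 2 libraries farthest from the median of the first gene it was 0.81, 0.82 and 0.78. The libraries are the points of each correlation and share their depth and tissue makeup across genes, and no p is given. CTX140 1 was the lowest CTX140 library for all of them. Mmp12, their neighbour in the cluster, had r = 0.58 with Mmp3, 0.10 with Mmp10 and 0.31 with Mmp13. Mmp3 and Mmp14 had r = -0.73 (rho -0.53), which was -0.61 within groups and -0.43 without the farthest libraries.

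Reads may be shared between the stromelysins. Of 31-base words in the GENCODE transcripts of Mmp10, 11.94% occur in transcripts of Mmp3, and 14.57% of the words of Mmp3 occur in other genes, mostly Mmp10; how such reads were counted is not given in the sources used here. Mmp13 had no shared word. Genes most like Mmp3 were Mettl22 (r = 0.93), Ctps, which makes cytidine triphosphate (r = 0.93), and Asns, the asparagine synthetase (r = 0.93). Those most like Mmp10 were Itga7, Klk10 and Misp (r = 0.94 for each), and those most like Mmp13 were Car13 (r = 0.91), Rbm19 and Cdc42ep3 (r = 0.88 for each).

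**Figure D3:**
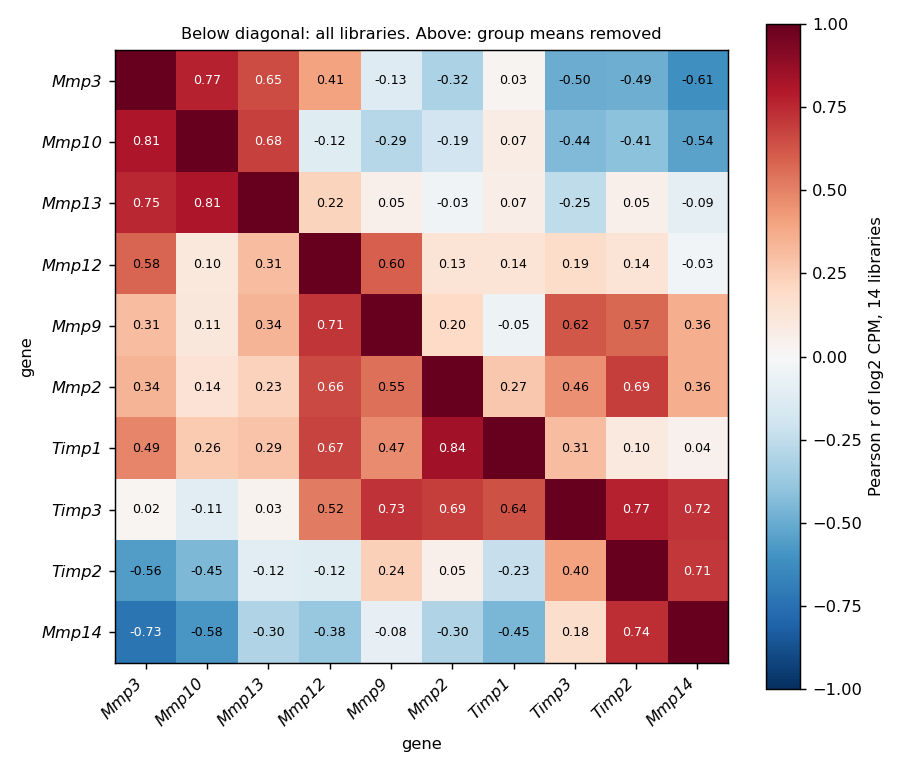
Pearson's r of log2 CPM for each pair of the 10 genes over 14 libraries; cells below the diagonal use all libraries as they are, cells above it use values with the group means removed. Mmp3, Mmp10 and Mmp13 form a block of 0.75 to 0.81 below the diagonal and 0.65 to 0.77 above it, and Mmp2 with Timp1 drops from 0.84 to 0.27.

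Mmp12 encodes macrophage elastase, which cuts elastin (ENSMUSG00000049723). PBS 1 to 4 had 212, 303, 249 and 99.9 CPM. CTX100 1 to 5 had 381, 426, 274, 247 and 236 CPM, and CTX140 1 to 5 had 378, 793, 560.3, 277 and 455 CPM. At CTX140, 4 of 5 libraries lay above all PBS libraries, and CTX140 4 fell within their range. Mmp12 rose 2.28-fold at CTX140, from 216 ± 86.1 CPM (n = 4) to 493 ± 197 CPM (n = 5), which is 1.19 ± 0.33 as log2 fold change (edgeR adjusted p = 0.0209). The call was lost without PBS 4, the library with the lowest value (log2 fold change 0.94, adjusted p = 0.0552), with no filter on low counts (adjusted p = 0.0761) and with only these groups in the fit (adjusted p = 0.0523). At CTX100 the log2 fold change was 0.53 ± 0.32 (adjusted p = 0.414).

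Of 8 macrophage markers, all tested, 1 was called higher at CTX140 (Cd68), beside 11.1% of all genes. At CTX100 none was, beside 1.20%, and none was called lower. Their summed level was 1213 to 1963 CPM in PBS, 705 to 1528 CPM in CTX100 and 834 to 4086 CPM in CTX140. CTX140 2 had both the highest sum and the highest Mmp12. CTX140 4 had the lowest sum of its group, 834 CPM, and its lowest Mmp12, 277 CPM, which is within the PBS range. CTX140 5 had a sum of 935 CPM, also below every PBS library, and an Mmp12 level above every PBS library. The part of these cells in the Mmp12 result was not tested. Genes most like Mmp12 were the fatty acid binding protein Fabp5 and the platelet and macrophage chemokine Pf4 (r = 0.89 for each) and Sept4 (r = 0.88). Mmp12 overlaps the end of Mmp1b, which lies on the opposite strand and had 5 to 44 counts per library.

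Timp1 encodes a secreted inhibitor that blocks most soluble metalloproteinases but is weak against Mmp14, and that is induced by inflammatory cytokines (ENSMUSG00000001131, chromosome X, 20870166 to 20874735, plus strand). It was at 144, 118, 99.4 and 118 CPM in PBS 1 to 4. CTX100 1 to 5 had 177, 157, 154, 148 and 200.4 CPM, and CTX140 1 to 5 had 209, 249, 262, 214 and 186.5 CPM. All CTX100 libraries lay above all PBS libraries, and 4 of 5 CTX140 libraries lay above all CTX100 libraries. Its standard errors were the smallest of the 10 genes in each comparison.

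Timp1 rose 1.87-fold at CTX140, from 119.8 ± 18.5 CPM (SD, n = 4) to 224 ± 30.8 CPM (n = 5), which is 0.90 ± 0.14 as log2 fold change (edgeR adjusted p = 0.000519). The call held without any 1 library (highest adjusted p = 0.00310). At CTX100 it was at 167 ± 21.4 CPM (n = 5), a log2 fold change of 0.48 ± 0.14 that did not pass (edgeR adjusted p = 0.0799), but did without PBS 1 (adjusted p = 0.0499). Between the doses the log2 fold change was 0.42 ± 0.13 (edgeR adjusted p = 0.0815), called without CTX140 5 (adjusted p = 0.0406).

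Genes most like Timp1 were Ly6c1 (r = 0.95), Ly6a (r = 0.95) and the p53 target Eda2r (r = 0.95). With group means removed r was 0.79, 0.76 and 0.69. Timp1 and Mmp2 had r = 0.84 over the libraries (rho 0.86) and 0.27 with group means removed. Timp1 lies inside Syn1, a gene of the opposite strand with 12 to 74 counts per library; the strand setting is not given in the sources used here. The fibroblast marker sums given above rose over the same groups, and their part in the Timp1 result was not tested.

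Timp2 encodes the inhibitor that also links the Mmp2 precursor to Mmp14 (ENSMUSG00000017466). PBS 1 to 4 had 417, 278, 538 and 442 CPM. CTX100 1 to 5 had 428, 415, 349, 309.7 and 293 CPM, and CTX140 1 to 5 had 344, 464, 340.5, 381 and 236 CPM. The groups overlapped widely, with log2 fold changes against PBS of -0.22 ± 0.20 at CTX100 (edgeR adjusted p = 0.593) and -0.25 ± 0.20 at CTX140 (adjusted p = 0.389). Timp2 and Mmp14 had r = 0.74 over the libraries (rho 0.78), 0.71 with group means removed and 0.63 without the 2 farthest libraries. Genes most like Timp2 were Itm2c (r = 0.93), Fam114a1 (r = 0.92) and Fkbp9 (r = 0.90), and those most like Mmp14 were Dennd5a, St3gal2 (r = 0.93 for each) and Rfwd3 (r = 0.92). Cep295nl lies inside Timp2 on the same strand and had 21 to 50 counts per library.

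Timp3 encodes an inhibitor that stays bound to the matrix and also blocks ADAM proteases (ENSMUSG00000020044). It was the least abundant member, with 6.03, 1.23, 2.73 and 2.80 CPM in PBS 1 to 4. CTX100 1 to 5 had 8.57, 8.07, 5.11, 3.12 and 2.47 CPM, and CTX140 1 to 5 had 14.1, 12.1, 7.36, 6.56 and 2.78 CPM. At CTX140, 4 of 5 libraries lay above all PBS libraries. The log2 fold change was 0.77 ± 0.51 at CTX100 (edgeR adjusted p = 0.457) and 1.42 ± 0.52 at CTX140 (adjusted p = 0.0617). The second was called without PBS 1 (adjusted p = 0.0252) or without CTX140 5 (adjusted p = 0.0225).

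Genes most like Timp3 were Col15a1 (r = 0.94), Meox2 (r = 0.93) and Kdr, the VEGF receptor of endothelium (r = 0.93). None of 6 blood endothelial markers, Kdr among them, was called in any comparison. The median log2 fold change of these markers against PBS was 0.13 at CTX100 and 0.97 at CTX140. Their summed level was 40.6 to 119 CPM in PBS, 43.2 to 120.5 CPM in CTX100 and 60.9 to 229 CPM in CTX140, with CTX140 1 highest in both that sum and Timp3. Their part in the Timp3 values was not tested. Timp3 lies inside Syn3, which had 1 to 7 counts per library on the opposite strand.

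Between the doses the members other than Mmp2, Mmp9 and Timp1 were not called either. Mmp12 and Timp3 had log2 fold changes of 0.65 ± 0.30 and 0.65 ± 0.46 for CTX140 against CTX100 (edgeR adjusted p = 0.221 and 0.441). Mmp10 and Mmp13 had -0.47 ± 0.49 and -0.36 ± 0.23 (adjusted p = 0.621 and 0.374). Mmp3, Mmp14 and Timp2 lay nearer to 0, with -0.03 ± 0.27, -0.12 ± 0.20 and -0.02 ± 0.19 (adjusted p = 0.971, 0.771 and 0.958).

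**Figure D4:**
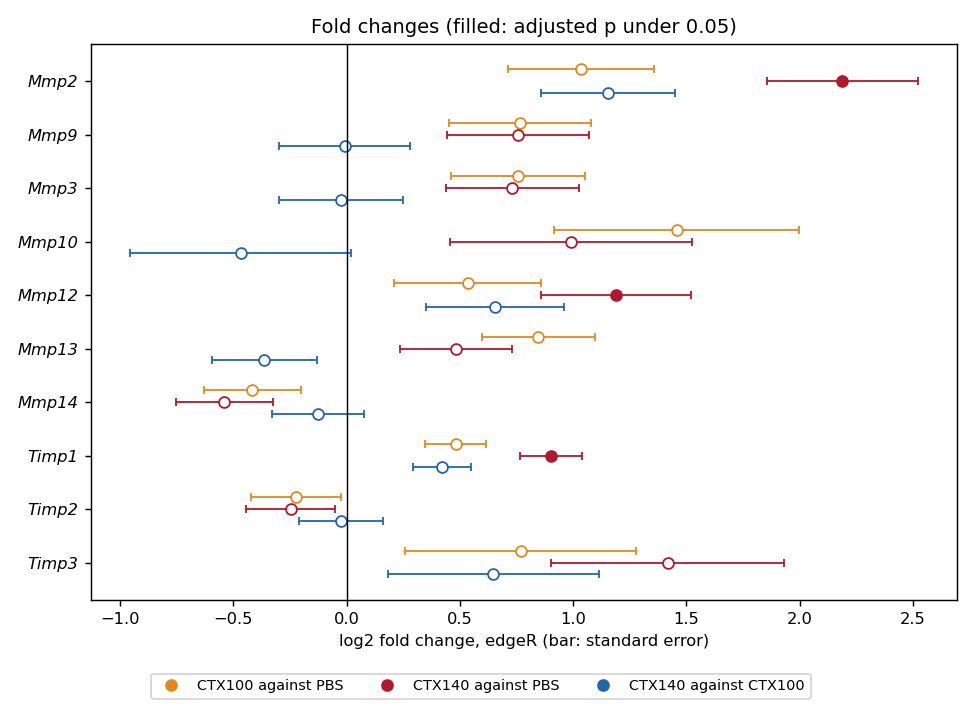
Fitted log2 fold change with its standard error (horizontal axis) for each of the 10 genes in the 3 comparisons; filled points have an edgeR adjusted p under 0.05. The filled points are Mmp2, Mmp12 and Timp1 in CTX140 against PBS, and Mmp14 and Timp2 lie left of 0 in both comparisons with PBS.

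Summed over the 7 metalloproteinases, levels were 214 to 297 FPKM in PBS, 316 to 519 FPKM in CTX100 and 290.2 to 498 FPKM in CTX140. The 3 inhibitors summed to 203 to 270 FPKM in PBS (highest library 269.5), 244 to 308 FPKM in CTX100 and 271 to 402 FPKM in CTX140. The ratio of these sums ranged from 0.875 to 1.46 over the PBS libraries, from 1.26 to 1.84 over those of CTX100 and from 0.902 to 1.73 over those of CTX140, so that the groups overlapped. Timp1 made up 44.7 to 64.9% of the inhibitor sum in the PBS libraries, 62.2 to 74.9% at CTX100 and 69.9 to 77.5% at CTX140. Mmp13 made up 22.6 to 29.7% of the metalloproteinase sum in the PBS libraries, 24.8 to 33.4% at CTX100 and 14.7 to 27.2% at CTX140. These sums are descriptions and were not tested.

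**Figure D5:**
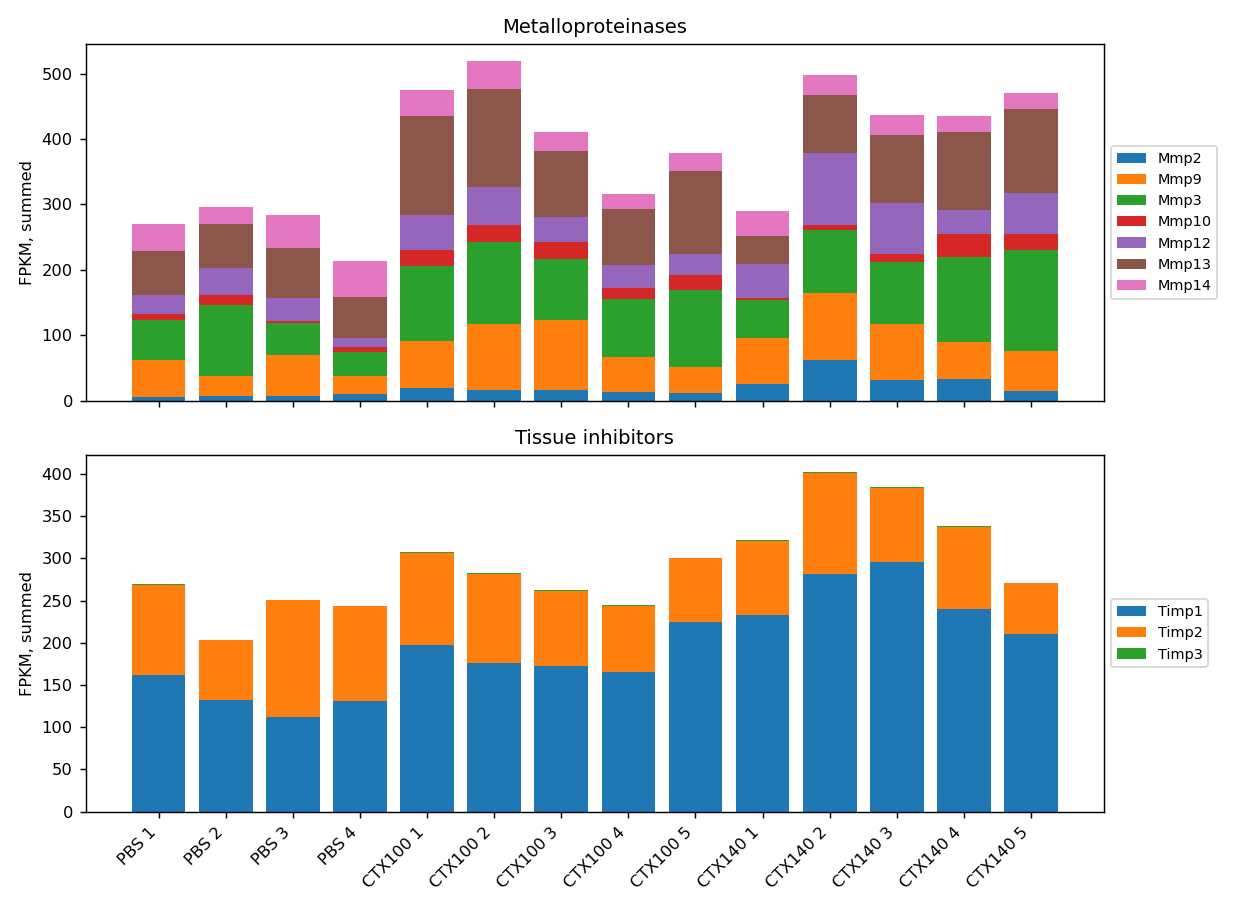
Stacked FPKM of the 7 metalloproteinases (top) and the 3 inhibitors (bottom) in each of the 14 libraries. All CTX100 libraries exceed all PBS libraries in the top panel, while CTX140 1 stays at 290.2 FPKM, and in the bottom panel the Timp1 part is higher in every CTX140 library than in any PBS library.

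Among 16 other metalloproteinase genes, 10 were tested and none was called at CTX100 or between the doses. At CTX140 Mmp23 and Mmp27 rose and Mmp11 fell. Mmp23 went from 1.96 ± 0.58 to 11.0 ± 5.60 CPM, that is 2.48 ± 0.34 as log2 fold change (edgeR adjusted p = 0.000283). Mmp11, which encodes stromelysin-3, went from 22.3 ± 2.49 to 11.8 ± 1.52 CPM, that is -0.92 ± 0.17 as log2 fold change (adjusted p = 0.00207). Mmp27 went from 0.838 ± 0.0962 to 3.33 ± 3.20 CPM (adjusted p = 0.0184), a call lost without PBS 4 or CTX140 2 (highest adjusted p = 0.0562). Mmp8, the neutrophil collagenase, was at 29.5 ± 12.9 CPM in PBS, 17.6 ± 5.68 CPM in CTX100 and 33.1 ± 13.9 CPM in CTX140, and was not called.

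Of 6 other inhibitor genes, 2 were tested, and at CTX140 they moved in opposite directions. A2m, which encodes a protease-trapping plasma protein, rose from 1.26 ± 1.23 to 10.2 ± 5.54 CPM (log2 fold change 3.00 ± 0.57, edgeR adjusted p = 0.00242). Reck, which encodes a membrane-anchored inhibitor of metalloproteinases, fell from 16.0 ± 7.62 to 7.53 ± 1.04 CPM (log2 fold change -1.09 ± 0.24, adjusted p = 0.00495).

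The other genes of the pathway were taken from 10 lists, the other metalloproteinases and inhibitors included, with 108 genes, of which 95 were tested. At CTX100, 7 were called higher and none lower; at CTX140, 32 higher and 17 lower; and between the doses 5 higher and none lower. Over all genes tested, 1.20% were called higher at CTX100, 11.1% higher and 10.1% lower at CTX140, and 0.775% higher between the doses, and the counts of each list stand beside these same shares. Up to 3 called genes of each list, those with the smallest p, are named. Of the 7 so named at CTX100, 6 lost the call without at least 1 library, as did all 5 named between the doses; at CTX140 it was 6 of 26.

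Proteases that process metalloproteinase precursors had 10 of 11 members higher at CTX140 and none lower, with a median log2 fold change of 2.70. The convertase Pcsk5 rose from 4.52 ± 1.44 to 19.2 ± 7.76 CPM (log2 fold change 2.08 ± 0.28, edgeR adjusted p = 0.000266). The neutrophil and mast cell cathepsin Ctsg and the tryptase Tpsab1 of mast cells, whose reads may be shared with its close relative Tpsb2, rose by 3.32 ± 0.50 and 3.46 ± 0.55. Both were rare: Ctsg went from 0.494 to 4.96 CPM and Tpsab1 from 1.15 to 12.6 CPM. Elane, Cma1 and Mcpt4 of the same list were as low in PBS, at 0.351, 1.06 and 1.48 CPM. Pcsk5 was also called between the doses (1.44 ± 0.25, adjusted p = 0.0260, up to 0.0821 without 1 library). Furin, the member that was not called, was at 94.4 ± 24.4 CPM in PBS and 80.0 ± 8.87 CPM in CTX140. At CTX100, 2 of the 11 were called higher (Tpsab1, adjusted p = 0.0329, and Ctsg, 0.0380; each lost the call without any 1 of 7 libraries, highest adjusted p = 0.118 and 0.145). Several of these are genes of mast cells and granulocyte precursors: of 6 mast cell markers 5 were called higher at CTX140, with sums of 4.83 to 16.1 CPM in PBS and 18.1 to 109 CPM in CTX140, and of 7 granulocyte precursor markers 5, with sums of 21.9 to 58.4 and 59.8 to 82.5 CPM. The lists overlap, since 4 of the mast cell markers and 3 of the granulocyte precursor markers are themselves on the protease list, so these counts partly restate the same calls. The part of these cells in the protease counts was not tested.

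Of 6 tested genes of plasminogen activation, none was called at CTX100, and at CTX140 Plaur, the urokinase receptor gene, rose while Plau (urokinase) and the protease inhibitor gene Serpine2 fell, with log2 fold changes of 0.44 ± 0.15, -0.44 ± 0.14 and -1.25 ± 0.40 (edgeR adjusted p = 0.0484, 0.0334 and 0.0387). Each of these calls was lost without at least 1 library (highest adjusted p = 0.153, 0.0993 and 0.159). Among 15 ADAM and ADAMTS genes, 4 rose and 3 fell at CTX140. Adamts5, an aggrecanase, went from 1.42 ± 0.67 CPM in PBS to 8.44 ± 3.10 CPM in CTX100 and 22.9 ± 6.37 CPM in CTX140, with log2 fold changes against PBS of 2.56 ± 0.38 (adjusted p = 0.0120) and 3.99 ± 0.39 (adjusted p = 3.86e-05). The CTX100 call was lost with limma and reached an adjusted p of 0.0499 without 1 library. Adamts5 was also called between the doses (1.44 ± 0.31, adjusted p = 0.0384, but up to 0.103 without 1 library). Adamts2, a procollagen-trimming protease, and Adamts15 rose at CTX140 by 1.69 ± 0.28 and 3.94 ± 0.65. Of 7 cysteine cathepsin genes Ctsk rose (1.76 ± 0.53, adjusted p = 0.0316) and Ctsl fell (-0.59 ± 0.20, adjusted p = 0.0483) at CTX140; both calls were lost without at least 1 library (highest adjusted p = 0.0983 and 0.203).

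The matrix genes on which these enzymes act did not move one way. At CTX140, 7 of 15 rose and 4 fell. Those with the smallest p were Col3a1 (2.55 ± 0.32, edgeR adjusted p = 0.000216), Dcn (1.92 ± 0.26, adjusted p = 0.000329) and Col1a2 (1.98 ± 0.32, adjusted p = 0.000867), which are fibroblast genes and stand on the fibroblast marker list too; the 4 that fell, named after their values were seen, were Fn1, Lamb1, Lamc1 and Col18a1. Col3a1 was the 1 member called at CTX100 (1.28 ± 0.31, adjusted p = 0.0489), and it and Dcn were called between the doses (1.27 ± 0.28 and 1.09 ± 0.24, adjusted p = 0.0434 and 0.0402). These 3 calls were lost without at least 1 library (highest adjusted p = 0.167, 0.130 and 0.118). Of 9 docking and clearance receptors, 4 fell and 1 rose at CTX140; Cd151, Itgav and Ddr1 had log2 fold changes of -0.65 ± 0.14, -0.67 ± 0.15 and -0.60 ± 0.15.

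Cytokines that induce metalloproteinase genes had 3 of 7 tested members higher at CTX100 and 5 at CTX140, none lower. Il1b, whose reads could include those of an antisense neighbour, rose from 82.3 ± 19.4 CPM in PBS to 276 ± 119 CPM in CTX100 and 318 ± 80.5 CPM in CTX140 (edgeR adjusted p = 0.0152 and 0.000419); the first call was lost without PBS 3 or PBS 4 (highest adjusted p = 0.0623). Osm, which encodes oncostatin M, rose by 0.94 ± 0.23 and 1.59 ± 0.23 (adjusted p = 0.0478 and 0.000371), and Il1a by 1.18 ± 0.27 and 2.18 ± 0.28 (adjusted p = 0.0412 and 0.000165). The CTX100 call of Osm was lost without any 1 of 6 libraries (highest adjusted p = 0.176) and with limma. That of Il1a was lost whichever 1 of the 9 libraries was left out (highest adjusted p = 0.151), with the replicate block and with limma. Tnf was the cytokine called between the doses (1.43 ± 0.32, adjusted p = 0.0420, up to 0.123 without 1 library). Of 13 transcription factors known from metalloproteinase promoters, the Fos and Jun genes of AP-1 included, none was called at CTX100 or between the doses. At CTX140, 1 fell, Runx2, a regulator of Mmp13 in bone cells, from 35.4 ± 6.58 to 24.5 ± 1.44 CPM (log2 fold change -0.53 ± 0.13, adjusted p = 0.0111).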

How the data were processed

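The authors deposited whole-number read counts per Ensembl gene, not normalised, and an FPKM table. In all libraries the deposited FPKM that were not 0 matched the count over gene length, scaled by a single factor (relative tolerance 1e-06). Per the submitters' processing notes, mm10 and DESeq2 were used, in roles not stated. The sources used here do not give aligner, counter or strand. Coordinates of all 10 members are the same in GENCODE M21.

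Counts were tested with edgeR 4.0.16 (R 4.3.3): TMM factors, filterByExpr by group, robust quasi-likelihood, two-sided, all 14 libraries in 1 fit without covariates, Benjamini-Hochberg over 15360 genes. Library totals are 14.4 to 19.3 (in units of 1000000 counts). Groups come from the treatment labels. Alternatives were RLE and upper quartile factors, no filter, DESeq2 1.42.0, only the compared groups, a replicate block, limma 3.58.1 on log2(FPKM + 1), and each library left out. The likeness of genes is Pearson's r of log2 CPM (prior count 2) among 12293 named protein-coding candidates (Gm and Rik symbols left out), each averaging 1 CPM or more. From each pathway list up to 3 called genes with the smallest p are named. Members and lists were chosen with earlier results of these data known.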

Additional observations from a re-analysis of the deposited data

How the results depend on the processing

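The calls of Mmp2 and Timp1 at CTX140 against PBS held under all alternatives run. The number of members called at CTX100 was 0 with edgeR on all groups and 3 with DESeq2 or with only these groups fitted (Mmp2, Mmp10 and Mmp13 in the latter), and 0 to 1 when leaving out 1 library. At CTX140 it was 3, against 5 with DESeq2, 5 with the replicate block, 2 with no filter on low counts, 2 with only these groups, and 2 (without PBS 4) to 6 (without CTX140 1) without 1 library; between the doses it was 0, against 2 with DESeq2 and 0 to 2 without 1 library. The number of all genes called at CTX100 was 245, against 857 with DESeq2, 529 with only these groups, 148 with limma and 17 (without PBS 3) to 686 (without PBS 2) without 1 library. At CTX140 it was 3268, against 4151 with DESeq2, 2827 with the replicate block, 2792 with no filter, 1878 with only these groups and 1975 to 3894 without 1 library. Between the doses it was 192, against 1285 with DESeq2, 293 with the replicate block and 0 (without CTX100 2, 3 or 4 or CTX140 3) to 1007 (without CTX140 5) without 1 library. The cause of these moves was not tested.

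Changes of sign occurred in members near 0 between the doses, none of them called. Mmp9 had log2 fold changes of 0.0036 with RLE factors, 0.019 with upper quartile factors, 0.0596 with limma and -0.17 to 0.15 without 1 library; Mmp3 had 0.0016 and Timp2 0.0044 with upper quartile factors, and -0.19 to 0.13 and -0.14 to 0.093 without 1 library. With the replicate block Mmp9 was at 0.0602 between the doses, and at CTX140 against PBS the block added Mmp9 (0.92, edgeR adjusted p = 0.0112) and Timp3 (1.61, adjusted p = 0.00590). The labels do not say that equal numbers share an animal or batch, and deviations of same-numbered libraries had correlations from -0.19 to 0.43. The numbers were therefore not taken as pairs. These correlations do not test an order by number within a group. Timp3 fell from library 1 to 5 in CTX100 (8.57 to 2.47 CPM) and in CTX140 (14.1 to 2.78 CPM), but not in order in PBS. Mmp13 rose from library 1 to 5 in CTX140 (116 to 342 CPM), but not in CTX100. What the numbers stand for is not given, and such an order was not tested. Timp3 had 18 to 235 counts per library, and the standard errors of Timp3 and Mmp10 were the largest among the members.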

Other observations

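Of the 16 other metalloproteinase genes, 6 did not pass the filter on low counts: Mmp7, Mmp16, Mmp17, Mmp20, Mmp21 and Mmp24. Mmp20, which encodes the enamel protease, had 0 counts in all 14 libraries, and Mmp7 had 3 counts in total, in 1 CTX100 library. Both lie in the chromosome 9 cluster, after Mmp27. Mmp1a and Mmp1b, the mouse collagenase copies, had 0 to 71 and 5 to 44 counts per library. Timp4 had 47 counts in total, at most 0.181 FPKM in a library. Mmp15, a membrane-bound metalloproteinase gene, ranged from 11 to 291 counts per library, and Mmp19 from 74 to 346; neither was called in any comparison.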
